A study of Homo sapiens with 3 samples.

Results

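The capture design for branchpoint sequencing in K562 cells listed 30 target intervals, of 377858 in all, inside the windows of 8 genes that carry small nucleolar RNAs (snoRNAs) in their introns. An interval was counted when it lay fully inside the hg19 window of its gene: GAS5 on chromosome 1 (173.832 to 173.838 Mb), SNHG1 on chromosome 11 (62.619 to 62.624 Mb), NCL on chromosome 2 (232.319 to 232.33 Mb), NOP56 on chromosome 20 (2.633 to 2.64 Mb), EIF4A1 on chromosome 17 (7.476 to 7.483 Mb), EIF4A2 on chromosome 3 (186.501 to 186.508 Mb), EEF2 on chromosome 19 (3.976 to 3.986 Mb) and HSPA8 on chromosome 11 (122.928 to 122.933 Mb). K562, an established line from a chronic myeloid leukaemia, was grown with no treatment named in the labels, and total RNA gave 3 libraries, replicates 1, 2 and 3 of a single group, with ERCC spike-in RNA at 1%, 1% and 1.08%. The interval list belongs to all 3 libraries, so it holds no value per library and no comparison between samples; it tells which intron ends were aimed at, and captured RNA was not analysed here. Per the labels' protocols the authors aimed at the 100 nt at each end of every annotated intron and removed annotated exons and regions highly transcribed in public K562 data.

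A snoRNA host gene is spliced like any other gene, but its introns are not waste. After splicing, the intron lariat is opened at its branchpoint and trimmed by exonucleases until only the snoRNA, protected by its proteins, is left. Box C/D snoRNAs guide 2′-O-methylation and box H/ACA snoRNAs guide pseudouridylation, mostly of ribosomal RNA. Many host genes encode parts of the ribosome, nucleolus or translation machinery and are strongly transcribed in growing cells, while others, such as GAS5 and SNHG1, make spliced RNAs with no known protein product.

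In the reference annotation, most snoRNAs of these genes lie close to an intron end, whether or not that end was listed. RefSeq (GRCh38.p14) places 40 snoRNA genes inside introns of the 8 genes as annotated in GENCODE release 29, with 11 in GAS5, 9 in SNHG1, 5 each in EIF4A2 and NOP56, 3 each in NCL, EIF4A1 and HSPA8, and 1 in EEF2. Their median distance to the 3′ splice site was 76.5 nt, and 29 of the 40 ended less than 100 nt from it, inside the stretch that the recipe targets. The 30 of the C/D family, named by symbol, had the same median of 76.5 nt, with a range from 15 to 630 nt. In SNHG1, whose introns carry snoRNAs in series, 8 of 9 ended within 100 nt of the 3′ splice site, at a median of 73 nt. At the other end of the intron, 25 of the 40 began less than 100 nt from the 5′ splice site. The smallest annotated intron around each snoRNA had a median length of 250 nt.

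**Figure D1:**
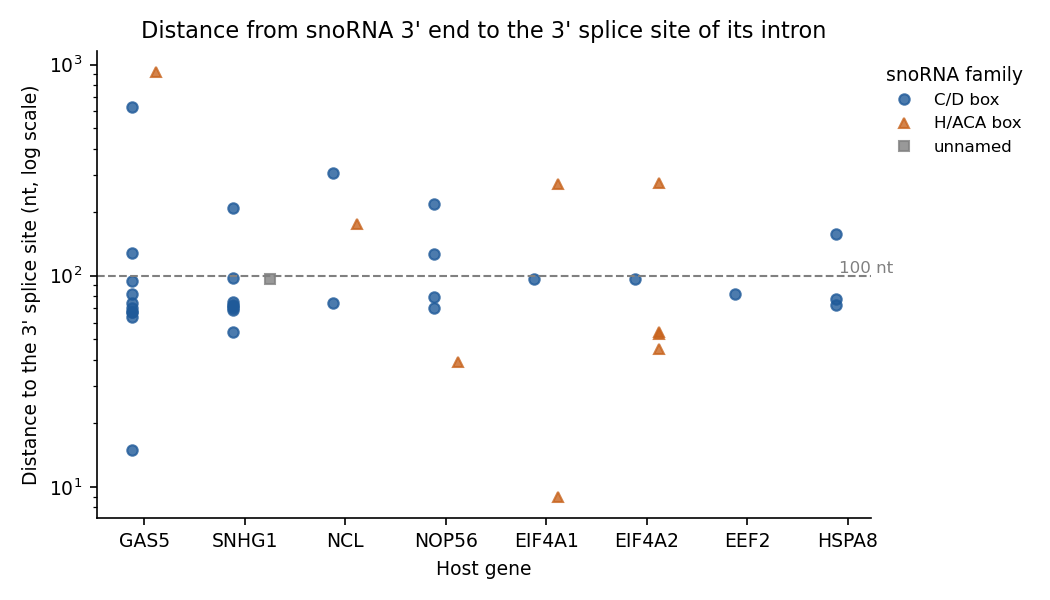
Distance in nt, on a log scale, from the 3′ end of each of the 40 snoRNAs to the 3′ splice site of the smallest annotated intron around it, by host gene; each point is a snoRNA, shaped by family, and the dashed line marks the 100 nt that the recipe targets. Most points, 29 of 40, lie under the line.

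The snoRNAs that bear most directly on the listed and missing targets of NCL and EEF2 are printed from the GENCODE release 29 transcripts (GRCh38), 5′ to 3′, as DNA letters. Capitals mark the letters TGATGA of the C box within the first 20 nt and CTGA of the D box within the last 20 nt, or ACA within the last 12 nt of the H/ACA snoRNA; each was searched on the strand of the snoRNA only and is a match of letters. Of all C/D snoRNA transcripts in that release, 187 of 288 (64.9%) held both C/D motifs in these places, and of all H/ACA transcripts 134 of 149 (89.9%) held ACA there. All 4 genes lie on the minus strand, each in an intron of its host: SNORA75 at chr2:231455800-231455936, SNORD20 at chr2:231456444-231456523, SNORD82 at chr2:231460371-231460440 and SNORD37 at chr19:3982507-3982572.
SNORA75 (NCL): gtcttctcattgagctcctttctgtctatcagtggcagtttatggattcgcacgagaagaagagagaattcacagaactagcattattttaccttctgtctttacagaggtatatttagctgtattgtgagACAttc
SNORD20 (NCL): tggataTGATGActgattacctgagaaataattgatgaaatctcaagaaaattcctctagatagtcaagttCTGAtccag
SNORD82 (NCL): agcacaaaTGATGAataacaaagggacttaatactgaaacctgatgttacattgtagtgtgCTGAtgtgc
SNORD37 (EEF2): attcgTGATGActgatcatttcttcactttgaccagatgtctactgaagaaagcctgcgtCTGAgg
In the 3 C/D snoRNAs the C box starts at position 6, 7 or 9, counted from 1 at the 5′ end, and 2 or 5 nt follow the D box. RefSeq draws SNORD82 from 231460368 to 231460442, slightly longer than the 70 nt printed.

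The 30 intervals listed in these windows had a higher median and mean score than the whole list. Single scores ran from 1 to 125. The deposited score is a whole number from 0 to 125 that no source used here explains. All 30 intervals scored above 0, where 52.8% of all intervals in the list did. Their median was 22 (whole list 1) and their mean 48.8 (whole list 6.8). In the 250 kb on either side of the 8 windows, 57.5% of 1453 intervals scored above 0, the median being 1 and the mean 10.4. A score of 19 or more, the 90th percentile of the list, was reached by 16 of the 30 (53.3%), against 10.4% of all intervals. A score of 82 or more, the 99th percentile, was reached by 8 of the 30 (26.7%), against 1.02% of all intervals. Intervals of a gene share their source and are not replicates, so these shares are a census of a fixed list with no test.

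**Figure D2:**
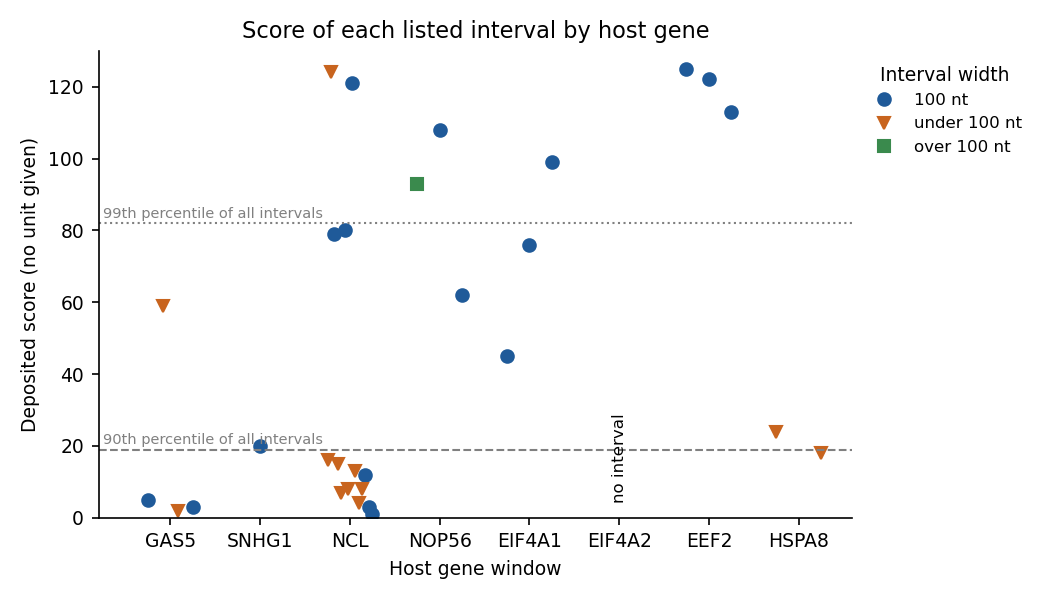
Deposited score of each of the 30 intervals by host gene window, left to right by position, with marker shape for width; dashed and dotted lines mark the 90th percentile (19) and the 99th percentile (82) of all intervals. EEF2, NOP56 and EIF4A1 sit high throughout, NCL runs from 1 to 124, and EIF4A2 has no interval.

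The genes differed widely among themselves. Over the 7 windows that held an interval, the mean of the gene means was 53.5 ± 40.4 (SD between genes). The order of medians by window was EEF2 (122), NOP56 (93), EIF4A1 (76), HSPA8 (21), SNHG1 (20), NCL (12.5) and GAS5 (4), but these rest on 1 to 14 intervals each. They are values of windows and not only of the hosts. By spacing, the GAS5 intervals scoring 2 and 3 matched ZBTB37 introns, and the NOP56 interval scoring 62 matched an IDH3B intron. The ranges of EEF2, at 113 to 125, and of NOP56, at 62 to 108, did not overlap, while that of EIF4A1, at 45 to 99, overlapped that of NOP56. The range of NCL spanned those of all the others except for the top value of EEF2.

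The noncoding hosts carry the most snoRNAs, 11 and 9, and their windows had 5 listed intervals between them. Of these, 3 scored 5 or less, and none of those 3 matched an intron of its host by spacing. In GAS5, a long noncoding RNA named for its accumulation in growth-arrested cells, the 4 listed intervals scored 5, 59, 2 and 3 in order of position. The last 2 of these matched introns of the overlapping gene ZBTB37 by width and spacing. Only the 51 nt interval from 173836077 to 173836127 stood high. The flanks of GAS5 had a median of 2, within the range of the other 3 values. SNHG1, which hosts SNORD22 and SNORD25 to SNORD31, had a single interval, from 62623855 to 62623954, 100 nt wide with a score of 20. That score lies near the median of its flanks, which was 16 over 224 intervals, the highest flank median of the 8 genes. The nearest listed intervals outside lay 14815 nt to the left and 14162 nt to the right.

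The nucleolar protein genes gave the most and some of the highest-scoring targets. NCL encodes nucleolin, an abundant nucleolar protein that binds ribosomal RNA, and its window held 14 of the 30 intervals. In order of position they scored 16, 124, 79, 15, 7, 80, 8, 121, 13, 4, 8, 12, 3 and 1. The 4 high values were all in the first 8 places, and the last 6, toward the 5′ end of this minus-strand gene, scored 13 or less. NOP56 encodes a core protein of the box C/D snoRNA particle itself. Its window held 3 intervals that scored 93, 108 and 62, against a median of 0 in its flanks; the last matched an intron of the neighbouring gene IDH3B by spacing. The first of them, from 2635223 to 2635394, was 172 nt wide and the only member wider than 100 nt (4.41% of all intervals are).

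The translation factor genes held the extremes. EEF2 encodes elongation factor 2, which moves the ribosome along the mRNA. Its 3 intervals scored 125, 122 and 113, the first being the highest value in the list, shared by 54 intervals. They lay from 3979705 to 3979804, from 3981236 to 3981335 and from 3982704 to 3982803, each exactly 100 nt wide. EIF4A1 encodes the RNA helicase of the cap-binding complex, and its 3 intervals, all 100 nt wide, scored 45, 76 and 99. All 3 lay between 7476184 and 7476966, in the first kilobase of a 7 kb window. EIF4A2, its close paralogue, had no interval at all. The stretch with no listed interval around EIF4A2 ran for 44331 nt, up to an interval outside the window that scored 99. Whether that neighbour, from 186508196 to 186508295, belongs to EIF4A2 could not be read from the list.

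HSPA8, the gene of the constitutive heat shock cognate protein Hsc70 and host of SNORD14C, SNORD14D and SNORD14E, had only slivers. Its 2 intervals, from 122932282 to 122932295 and from 122932741 to 122932770, were 14 and 30 nt wide and scored 24 and 18. In its flanks 8.33% of 60 intervals scored above 0, with a mean of 0.233. Both HSPA8 scores were far above that flank mean and far below every EEF2 score.

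Running numbers were missing far more often in these windows than in the list as a whole. Each interval carries a number that runs along its chromosome, and of 382611 such numbers 4753 (1.24%) have no interval. Between the listed intervals of the 8 windows, 21 of 51 numbers (41.2%) were missing. Counting also the numbers missing between a window and the nearest listed interval outside, 60 of 90 (66.7%) were missing, though some of those may lie in a neighbouring gene. That count adds missing numbers but no listed interval from outside, so its share can only rise. It is therefore not comparable with the 1.24%. In the flanks, 33 of 1486 numbers (2.22%) were missing, 24 of them beside SNHG1. The windows held 0.00794% of all intervals and, inside them, 21 of the 4753 missing numbers. With their edges they had 1.26% of all missing numbers. The edge gaps run up to 80165 nt, so that share covers far more sequence than the windows. Every one of the 8 windows had a missing number inside or at an edge, and those of GAS5, NCL, NOP56 and EEF2 had missing numbers between their own listed intervals.

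**Figure D3:**
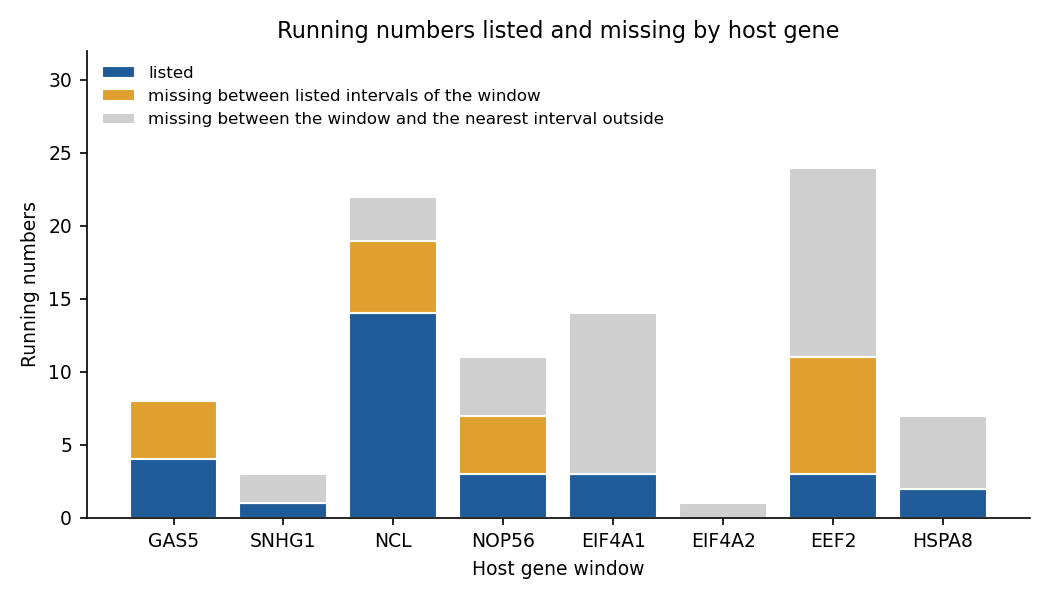
Running numbers by host gene window, stacked as listed intervals, numbers missing between listed intervals of the window, and numbers missing between the window and the nearest interval outside. EEF2 spans 24 numbers with 3 listed, and NCL spans 22 with 14 listed.

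EEF2 lost the most by number. Of the 24 numbers it spanned, 21 (87.5%) were missing, in blocks of 8, 4, 4 and 5 separated by its 3 listed intervals. Only the inner blocks of 4 and 4 lie wholly inside the window. Inside the window, 8 numbers were missing between the 3 listed intervals. Chromosome 19 as a whole missed 3.82% of its numbers. The 87.5% includes the edges, which add missing numbers only, so the 2 shares are not directly comparable. In EIF4A1, 11 numbers were missing in a row between the last interval of the window, which scored 99, and the next listed interval 6078 nt away, which scored 75. Of 3313 breaks in the list, only 2 were longer, at 16 and 13 numbers, and 1 other had the same length. Breaks of 4 or more numbers made up 4.01% of all breaks (133), and 7 of the 19 breaks in or at these windows were that long.

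NOP56 missed 8 of 11 numbers, 4 of them inside the window between intervals that scored 108 and 62. HSPA8 missed 5 of 7, all in the 80165 nt between its first interval and the nearest listed interval to the left. SNHG1 missed 2 of 3, GAS5 4 of 8 and EIF4A2 the single number it spanned. NCL kept the largest share, with 8 of 22 missing (36.4%), 5 of them inside the window, where chromosome 2 missed 0.444%. These counts by gene include the edges, which add missing numbers and never a listed interval. EIF4A2, with no interval, could therefore show no listed number. In NCL the missing numbers were scattered as blocks of 1 or 2 rather than in long runs.

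**Figure D4:**
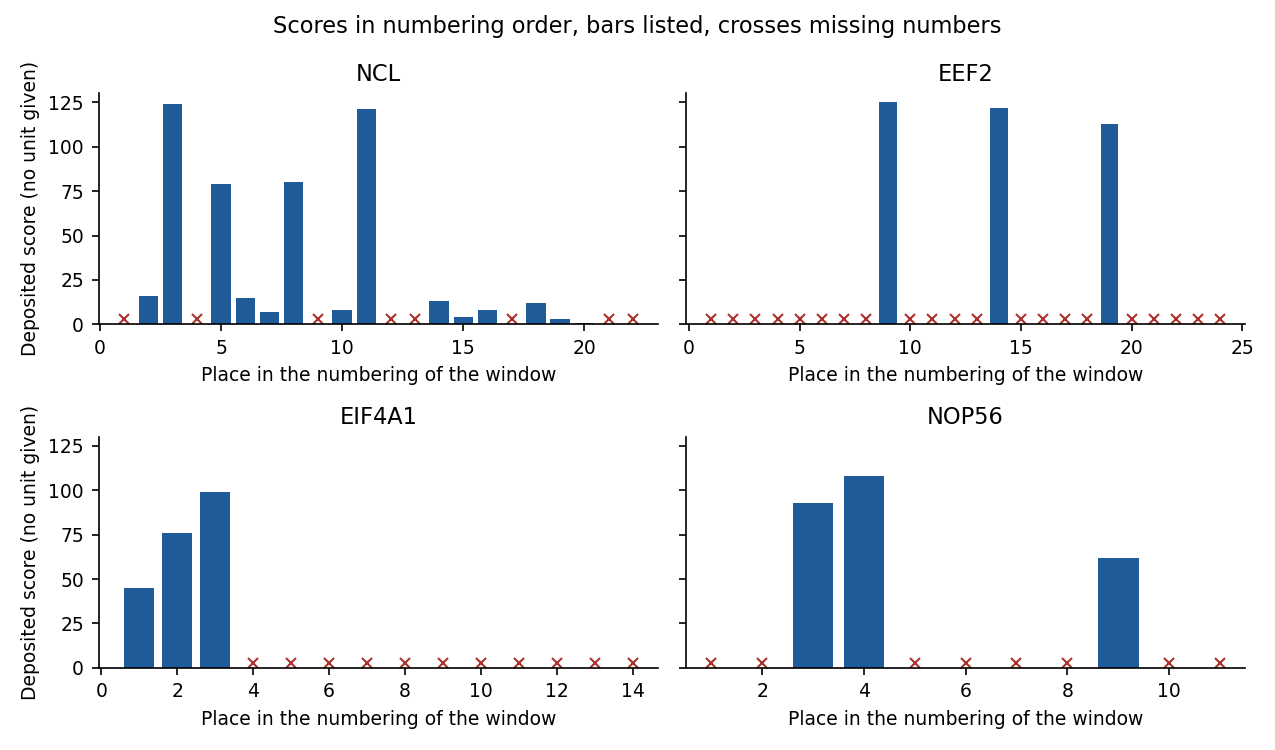
Deposited score in numbering order for NCL, EEF2, EIF4A1 and NOP56, with bars for listed intervals and crosses for missing numbers, edges of the windows included. In EEF2 each listed interval stands alone between missing numbers, and in EIF4A1 11 missing numbers follow the 3 listed ones.

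Members beside a missing number scored higher than the others. The 22 such intervals had a median of 60.5, from 1 to 125, and the 8 others a median of 11, from 3 to 76. All 8 members at or above 82 were among the 22, which already make up most of the members. Of the 3855 intervals of the whole list at or above 82, 994 were beside a missing number. Over the whole list, the 6107 intervals beside a missing number had a median of 30. The groups overlapped, and within NCL the lowest score, 1, was also beside a missing number.

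Many members were narrower than the 100 nt of a full intron end. Of the 30, 12 (40.0%) were under 100 nt, against 7.87% of all intervals and 11% in the flanks. NCL had 8 of the 12, GAS5 and HSPA8 had 2 each, and none was in SNHG1, NOP56, EIF4A1 or EEF2. Chromosomes 1 and 2 hold an excess of 96 to 99 nt intervals, at 10.6% and 9.27% of their intervals, and GAS5 and NCL lie on these. Under 100 nt, the shares of all intervals on these 2 chromosomes were 17.3% and 15.3%, above the 7.87% of the whole list. Without those 2 genes the share under 100 nt was 2 of 12 (16.7%), both in HSPA8. Under 96 nt the share was 8 of 30 (26.7%), against 5.31% of all intervals.

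Scores inside NCL did not follow width in a single order. The narrowest interval, of 72 nt, had the highest score, 124, and the 90 nt interval scored 16. The 6 intervals of 95 to 99 nt scored between 4 and 15, with a median of 8, and its 6 full-width intervals scored 79, 80, 121, 12, 3 and 1. The narrow class therefore lay wholly inside the range of the full-width class. Over chromosome 2, 3102 intervals of 95 to 99 nt had a median of 7 and 24339 full-width intervals a median of 0. The median of the narrow class in NCL was thus within 1 of that of its class on the chromosome, while the full-width median in NCL, 45.5, rested on 3 scores of 79 or more. The median gap between neighbouring members inside a window was 445 nt over 23 gaps, against 505 nt in the whole list. Member gaps cannot exceed their window and some span missing numbers, while the whole list counts every gap along a chromosome. The 2 medians are therefore not like for like.

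Applying the intron-end and exon steps of the stated recipe to all transcripts of GENCODE release 29 left few intron-end bases in most of these genes. The 164 distinct introns of the 8 genes have 20168 bases within 100 nt of an intron end. Exons of the same gene's other transcripts covered 65.6% of them, and 32.9% (6644 bases) were left after all exons were removed. The rebuilt set had 71 intervals, against the 30 listed. With the basic transcript set alone it had 142 intervals and 13881 bases, so both numbers depend strongly on which transcripts count. Exons of snoRNA genes removed only 139 bases after the genes' own exons, and leaving them in gave 70 intervals. The removal of highly transcribed regions was not applied, so the rebuilt set is not a full version of the design. Release 29 is not the release 12 of the labels, and it annotates no snoRNA gene of its own inside GAS5. These numbers therefore describe the intron-end and exon steps and not the authors' run.

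**Figure D5:**
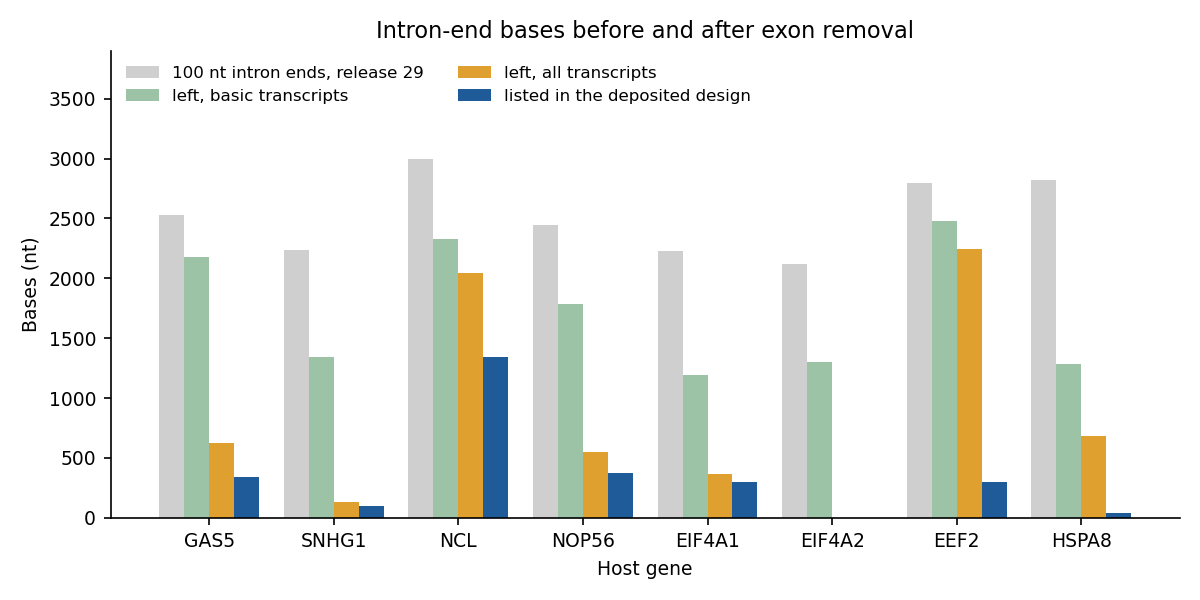
Bases of each host gene within 100 nt of an intron end in GENCODE release 29, bases left after exon removal with the basic and with all transcripts, and bases listed in the deposited design (nt). In EIF4A2 nothing is left with all transcripts and nothing is listed, while in EEF2 2241 bases are left and 300 are listed.

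With all transcripts, the translation factor genes lay at both ends of this scale. In EIF4A2, exons of its own 27 transcripts covered 95.3% of 2118 intron-end bases. Exons of other genes covered the remaining 100 bases, so the rebuilt set has 0 intervals, as does the list. With the basic transcript set alone, EIF4A2 has 17 rebuilt intervals, EIF4A1 12 and EEF2 24. The match of EIF4A2 with the list therefore holds for all transcripts only. In EIF4A1, with 37 transcripts, 16.5% were left in 4 rebuilt intervals, against 3 listed and 11 numbers missing at the edge of the window. In EEF2, with 7 transcripts, 80.2% were left in 22 rebuilt intervals, against 3 listed and 21 numbers missing, edges included. What removed the numbered intervals, high transcription or another step of the design, was not tested.

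With all transcripts, the other hosts fell between these. With the basic transcript set alone they had more rebuilt intervals, 16 in SNHG1, 17 in GAS5, 14 in HSPA8, 18 in NOP56 and 24 in NCL. The values that follow are for all transcripts. SNHG1 kept 6.04% of its intron-end bases and has 2 rebuilt intervals against 1 listed. GAS5 kept 24.8%, with 6 intervals rebuilt from its introns and 4 listed in its window, of which 1 matched a GAS5 intron by spacing, 2 matched ZBTB37 and 1 was unmatched. HSPA8 kept 24.2%, with 9 rebuilt and 2 listed, and NOP56 kept 22.4%, with 5 rebuilt and 3 listed in its window, of which 2 matched NOP56 introns and 1 matched IDH3B. NCL kept 68.2%, with 23 rebuilt and 14 listed, of which those scoring 12, 3 and 1 were unmatched. Its release 29 model extends well past the window used here.

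The listed intervals were then laid against the rebuilt ones by their widths and spacing alone. In 5 windows (GAS5, NCL, EIF4A1, NOP56 and EEF2) at least 3 intervals coincided on both edges to within 1 nt, neighbours up to 1500 nt outside included. In those windows 22 of the 30 members matched a rebuilt interval at an edge, within 3 nt. Of the 22, 19 matched an intron of the host itself. The 2 rightmost intervals of the GAS5 window matched introns of ZBTB37, a gene that overlaps the 5′ end of GAS5 on the other strand, and the last NOP56 interval matched an intron of the neighbour IDH3B, outside the release 29 span of NOP56. The first EIF4A1 interval, with a score of 45, matched an intron that EIF4A1 shares with the readthrough gene SENP3-EIF4A1. Without these 3, the mean score was 51.8 and the share at or above 19 was 55.6%. SNHG1, EIF4A2 and HSPA8 could not be matched.

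The matches placed 2 high-scoring narrow intervals beside a snoRNA, the GAS5 one by a weaker match than the NCL one. The 72 nt interval of NCL from 232320648 to 232320719, with a score of 124, matched the 73 nt between a 5′ splice site and SNORA75. Its sequence is printed above. The 51 nt interval of GAS5, with a score of 59, matched the 5′ part of a 194 nt intron that holds SNORD75. RefSeq places SNORD75 52 nt from the 5′ splice site of that intron and 82 nt from the 3′ splice site. In both, the listed piece began within 2 nt of the splice site and ended within 2 nt of the snoRNA by these lengths.

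Around SNORD82 no piece was listed. The rebuilt set has a 77 nt and a 37 nt piece on the 2 sides of SNORD82 in NCL. Exactly 2 numbers are missing at that place, between intervals scoring 121 and 13. In the other 2 breaks of NCL that lie between matched intervals, 1 number is missing and 1 rebuilt interval of 100 nt is unmatched. The first of these breaks spans SNORD20. Over all 17 stretches between consecutive matched intervals, the listed and missing numbers equalled the rebuilt intervals in 11 and differed in 6. Most of the 11 lay between adjacent numbers, with nothing listed, missing or rebuilt in between. The only equal stretches with anything to compare were the NCL breaks just described. In NCL, a rebuilt interval of 15 nt had no number between the intervals scoring 7 and 80. In GAS5, 1 number was missing against 2 rebuilt intervals, in a stretch that spans SNORD74. In EIF4A1, the listed interval scoring 76 had no rebuilt counterpart. In EEF2 each of the 2 breaks inside the window misses 4 numbers, against 3 rebuilt intervals, and the break between its scores of 122 and 113 spans SNORD37. In NOP56 the 4 missing numbers inside the window span SNORA51, SNORD86, SNORD56 and SNORD57, where release 29 leaves no interval; the interval after that break is the one matched to IDH3B.

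The matched intervals also showed which end of the intron each target came from. All 3 listed intervals of EEF2 matched 5′ intron ends; the rebuilt set has 10 intervals at 5′ ends and 8 at 3′ ends of EEF2 introns, and none of the 8 was listed. In NCL, 5 listed intervals matched 5′ ends, with scores of 124, 79, 7, 121 and 8, and 5 matched 3′ ends, the side that holds the branchpoint, with scores of 16, 15, 80, 8 and 4. The medians were 79 and 15, and the values overlapped. Over all 19 host matches, 11 were 5′ ends with a median score of 108, 5 were 3′ ends, all in NCL, and 2 covered both ends of a short intron (98 of 104 nt in NCL and 172 of 173 nt in NOP56). The remaining 1 was the 51 nt interval of GAS5, which covered only the 5′ part of its intron.

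The narrow NCL intervals were short on the exon side. The 5 of 95 to 99 nt that matched a single intron end lacked 2 to 6 nt at the splice-site edge and none at the inner edge, with an uncertainty of 1 nt. The 3 full-width ones that matched lacked at most 1 nt there. The sixth of the class, 98 nt wide, matched a whole intron of 104 nt and lacked 4 nt at its left and 2 nt at its right edge. The 90 nt interval, with a score of 16, lacked 3 nt on the exon side and 7 nt on the inner side.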

How the data were processed

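Values came from the deposited list of capture intervals in hg19, common to the 3 libraries. Per the labels' protocols, the authors took the 100 nt ends of introns in GENCODE release 12 and removed exons and highly transcribed regions; the submitters' processing notes name hg19, Bowtie2, TopHat2 and bedtools with no role. The deposited score is a whole number that no source used here explains, so no count model was used. Read depths were not analysed here. Coordinates are 1-based. Missing numbers were counted from the running number of each interval. The intron-end and exon steps of the recipe were laid over GENCODE release 29 (GRCh38), without the removal of highly transcribed regions. Only widths, spacing and order were compared between builds, and no coordinate was converted. A match needed 3 intervals coinciding on both edges within 1 nt; counting and matching were tested on simulated data. The named genes are the 8 members; the intervals named are the highest, lowest and narrowest of a gene and those beside missing numbers, with snoRNAs inside their introns; ZBTB37, IDH3B and the other intervals were named after their values were seen. Members and lists were chosen with earlier results of these data known, and the spacing match after the data were seen. Computation used pandas 2.3.3 and numpy 2.4.6 under Python 3.11.15, and plots matplotlib 3.10.9.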

Additional observations from a re-analysis of the deposited data

How the results depend on the processing

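Of 22 alternative settings, 16 left the value within the limits set for it. For shares the limits were a 95% interval that counts the intervals as independent, which they are not. For the mean score they were the SD between genes (40.4) on either side. Counts and the median gap were allowed a fixed factor. These limits are wide, so a value within them says little about stability. The share under 100 nt was 16.7% without the genes on chromosomes 1 and 2. The 21 missing numbers inside the windows became 60 with window edges and 32 with windows widened by 1 kb. The share at or above the 90th percentile (53.3%) became 26.7% at the 99th, by construction. The median gap of 445 nt became 203 nt for gaps of at most 500 nt, also by construction. The rebuilt set of 71 intervals became 142 with basic transcripts, in which fewer exons are removed. Leaving out each gene in turn gave 13 missing numbers (without EEF2) to 21, shares at or above the 90th percentile of 48.1% to 75% (without NCL), mean scores of 40.9 to 60.9, and shares under 100 nt of 25% to 44.4%; every interval scored above 0 in each. The setting without intervals of neighbouring genes was chosen after seeing the data. No paired analysis was possible because a single interval list serves all 3 libraries of 1 group, and for that reason no replicate could be left out.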
